A study of Danio rerio with 4 samples.

Results

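The transcription factor genes *rx1*, *rx2*, *pax6a*, *pax6b*, *six3a*, *six3b*, *six6a*, *six6b* and *lhx2b* were examined in dissected zebrafish eyes that lacked or retained function of the DNA demethylation enzymes tet2 and tet3. They were taken by symbol as genes of the eye field and of retinal progenitor cells (RPCs), and all 9 were found once in each deposited table, among 31388 genes at 36 hours post fertilization (hpf) and 31950 rows at 72hpf. The series holds 4 samples of TL strain embryos, 1 *tet2*-/-;*tet3*-/- mutant sample and 1 sibling control sample at each stage. The mutants carried the TALEN-made frameshift alleles *tet2* au59 and *tet3* au60 and came from crosses of double heterozygotes, and the siblings were sorted as wild type by appearance, so the sibling eyes can hold several genotypes. Each sample was poly-A RNA from pooled whole eyes, lens included, so the differences have no replicate check and carry no p-value at either stage. In bulk RNA of this kind, fewer cells of a type and less RNA per cell cannot be told apart.

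The eye field is the patch of the anterior neural plate from which both eyes grow, and it is marked by a network of homeobox genes that switch each other on. The Rx, Pax6, Six3, Six6 and Lhx2 proteins are part of that network, and many of them are used again, first in dividing RPCs and later in particular retinal cell types and at the ciliary marginal zone (CMZ), where the fish eye keeps adding neurons. Zebrafish have kept copies of most of these genes from the genome duplication of teleost fish, which makes pairs such as *pax6a* and *pax6b*.

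At 36hpf each deposited value was the mean of 2 whole read counts of 1 genotype, and the sum of both was used. The sums over all genes were 106912677 reads in mutant-labelled and 88875538 in sibling-labelled eyes. Values are given as RPM, read counts brought to a common library size, after TMM scaling, and a log2 fold-change sets mutant-labelled against sibling-labelled eyes, with its 95% interval (Clopper-Pearson, exact) for counting error alone. At 72hpf the values are FPKM (fragments scaled to transcript length and to the fragments of the library) without read counts, so the depth is unknown and no interval can be given. Differences at 72hpf are on the log2(FPKM + 1) scale, which understates the change of low genes. *tet2* had 12459 reads in the library labelled mutant and 9646 in the library labelled sibling at 36hpf, and an FPKM of 34.1 and 33.6 at 72hpf. *tet3* had 8611 and 8381 reads, and an FPKM of 37.9 and 55.9. These whole-gene values do not separate frameshift transcripts from intact ones. Why *tet2* was not lower under the mutant label was not tested. The labels could not be checked from these values, so the libraries are named by their labels.

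At each stage most of the eye field and progenitor factors differed little between genotypes. Outside the interquartile range of all genes lay *six6b*, *six6a* and *pax6b* at 36hpf and *rx1* and *rx2* at 72hpf. At 36hpf, 1 of the 9 genes reached -1 or less, as did 6.15% of the 21876 genes kept (at least 20 reads over both libraries), and none reached 1 or more, as 8.9% did. None reached 2 or more (1.77% of genes) or -2 or less (1.4%). Of the 9 genes 5 were above 0 and 4 below, against 51% and 49% of all genes. Their median was 0.02, and that of all genes kept was 0.01. At 72hpf none of the 9 reached -1 or less or 1 or more, as 9.02% and 3.65% of 17307 genes did (FPKM of at least 1 in either library). None reached 2 or more (0.254%) or -2 or less (1.77%). Above 0 were 3 of the 9 and below 0 were 6, against 51.9% and 48.1% of all genes, and their median was -0.18 against 0.02 for all genes. The interval lay above 0 for 4 of the 9 genes at 36hpf and below 0 for 4, and for 34.5% and 33.1% of all genes. Among genes with at least 1000 reads over both libraries the intervals of 39.1% and 42.3% did, so an interval clear of 0 was the usual case at this depth.

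**Figure D1:**
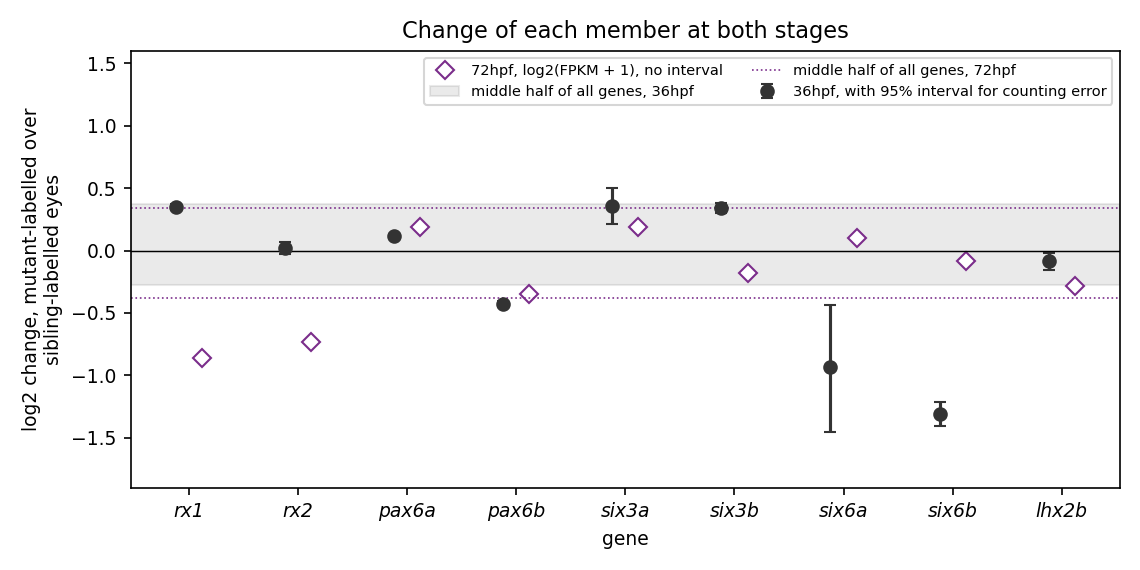
Log2 change of each of the 9 genes, mutant-labelled over sibling-labelled eyes (y axis), at 36hpf (filled circles with the 95% interval for counting error) and at 72hpf (open diamonds, log2(FPKM + 1), no interval). The shaded band and the dotted lines mark the interquartile range of all genes kept at 36hpf and 72hpf. *six6b* at 36hpf (-1.31) is the only point below -1, and *rx1* (-0.86) and *rx2* (-0.73) lie lowest at 72hpf.

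The retinal homeobox gene *rx1* was higher in mutant-labelled eyes at 36hpf and lower at 72hpf, and *rx2* was level at 36hpf and lower at 72hpf. In fish, rx proteins keep the early retina in its progenitor state and are later needed in photoreceptors, and rx2 marks stem cells of the CMZ. *rx1* (chromosome 22 of GRCz10, locus 4614880 to 4622426) had 25136 and 14138 reads in the 2 counts of mutant-labelled eyes at 36hpf, against 14709 and 10425 in sibling-labelled eyes. Scaled to depth these were 365 and 362 RPM in mutant-labelled eyes and 285 and 286 in sibling-labelled eyes. The counts of the genotypes did not overlap, and the log2 fold-change was 0.35 (interval 0.33 to 0.37). At 72hpf *rx1* had an FPKM of 44.5 in mutant-labelled and 81.7 in sibling-labelled eyes, 1.84-fold lower, with a log2 difference of -0.86.

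*rx2* (chromosome 2, locus 55709126 to 55737506) did not separate the genotypes at 36hpf. Its counts were 72.4 and 75.2 RPM in mutant-labelled eyes and 72.5 and 72.6 in sibling-labelled eyes, and the interval of its log2 fold-change of 0.02 ran from -0.03 to 0.06. At 72hpf its FPKM was 23.3 in mutant-labelled and 39.3 in sibling-labelled eyes, 1.69-fold lower (-0.73). Of all genes kept at 72hpf, 11.2% lay below *rx1* and 13.9% below *rx2*, so both stood in the lower part of the distribution but not at its end. *rx3*, the third zebrafish rx gene, which starts the outgrowth of the optic vesicle, had 438 reads in mutant-labelled and 283 in sibling-labelled eyes at 36hpf (0.34) and an FPKM of 18.2 and 36.0 at 72hpf (-0.94). All 3 rx genes were thus lower in mutant-labelled eyes at 72hpf, and none was at 36hpf.

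Gene lists for cell types of the later retina that use rx genes had mixed values at 72hpf. The photoreceptor list holds transcription factor genes alone, so it does not measure mature photoreceptors. Of 7 photoreceptor transcription factor genes kept, 1 reached 1 (3.65% of all genes) and none reached -1 (9.02%). Their median was 0.08, with a summed FPKM of 842 in mutant-labelled and 884 in sibling-labelled eyes. Above 0 were 4 of the 7, the highest *prdm1b* (138 and 64.3, 1.09) and *otx5* (307 and 259, 0.24). Below 0 were 3, the lowest *neurod1* (249 and 409, -0.71) and *nrl* (6.58 and 11.4, -0.71). At 36hpf 5 of 7 genes of this list lay below -1 (6.15% of all genes) and none reached 1 (8.9%), with a median of -1.49. Of 7 Müller glia genes at 72hpf, 2 lay below -1 (9.02% of all genes) and none above 1 (3.65%). Their median was -0.57, with a summed FPKM of 327 and 447. The 2 below -1 were *glula*, a glutamine synthetase gene (FPKM 30.9 and 94.96, -1.59), and *rlbp1a*, a retinaldehyde-binding protein gene (52.9 and 121, -1.17). The 2 genes above 0 were *glulb* (153 and 113, 0.43) and *slc1a3a* (5.71 and 4.28, 0.35). No gene of either list was at 0 in either library. The part of these cells in the rx values was not tested.

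**Figure D2:**
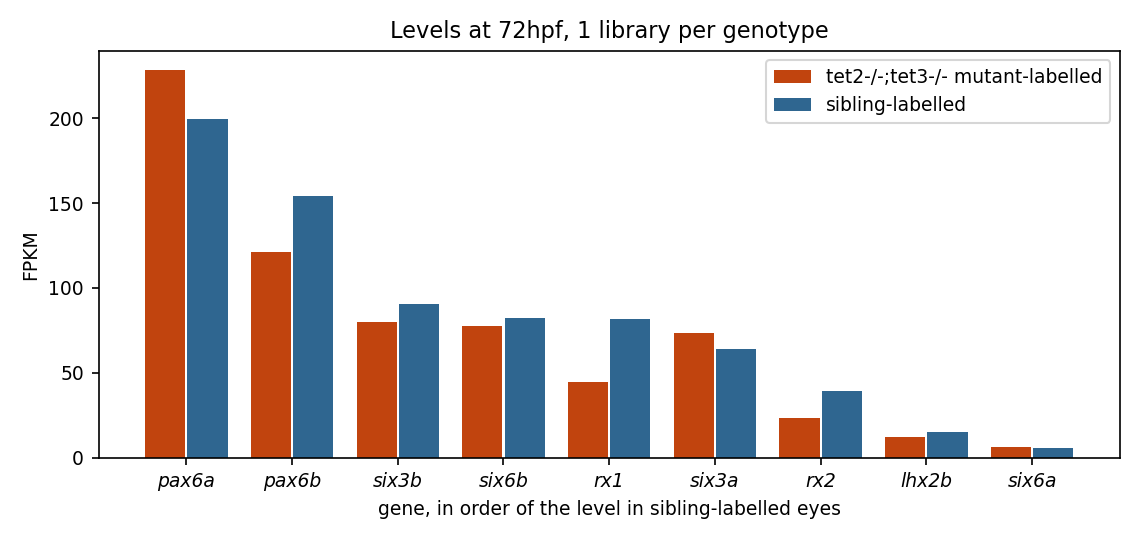
FPKM (y axis, from 0) of each gene at 72hpf in mutant-labelled (left bar) and sibling-labelled eyes (right bar), 1 library each, so the bars carry no error. *rx1* stands at 44.5 and 81.7 and *rx2* at 23.3 and 39.3, while the pairs of bars of the other genes are closer in proportion.

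The Six6 genes were the lowest of the group at 36hpf. In mice, Six6 is a repressor that holds RPCs in the cell cycle, and Six6 loss leaves small eyes with few ganglion cells. *six6b* (chromosome 20) had 807 and 491 reads in mutant-labelled eyes at 36hpf, against 1565 and 1057 in sibling-labelled eyes. In RPM its counts were 11.7 and 12.6 in mutant-labelled eyes and 30.3 and 29.0 in sibling-labelled eyes, with no overlap. The sum was 2.48-fold lower in mutant-labelled eyes, with a log2 fold-change of -1.31 (interval -1.41 to -1.21), and 3.83% of all genes kept lay below it.

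*six6a* (chromosome 13) had few reads at 36hpf, 38 and 17 in mutant-labelled eyes and 56 and 30 in sibling-labelled eyes. Its log2 fold-change of -0.93 had the widest interval of the 9 genes (-1.45 to -0.43). Whether the counting at 36hpf missed reads of *six6a* or *six6b* was not tested. At 72hpf neither copy set the genotypes far apart. *six6b* had an FPKM of 77.9 in mutant-labelled and 82.4 in sibling-labelled eyes (-0.08), and *six6a* had 6.48 and 5.98 (0.10). In the 72hpf table *six6b* shares its locus entry with 3 other genes and *six6a* with 1 other gene, so the spans listed there (20528654 to 20682710, and 31415322 to 31475900) are wider than the genes.

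Marker genes of cell types that carry *pax6a*, *pax6b* or *six6b* besides RPCs were mostly below 0 at 36hpf. Of 10 ganglion cell genes kept, 6 lay below -1 (6.15% of all genes) and 1 above 1 (8.9%). Their median was -1.11, with a summed level of 189 RPM in mutant-labelled and 445 in sibling-labelled eyes. Above 0 were 3 of them, the highest *pou4f1* (82 and 28 reads, 1.24) and *alcama* (8874 and 5213, 0.47). *pou4f3* of that list was at 0 in sibling-labelled eyes. The lowest was *atoh7*, the bHLH gene that commits cells to the ganglion fate, with 585 reads in mutant-labelled and 13794 in sibling-labelled eyes (-4.85), and its FPKM at 72hpf was 81.2 and 30.5 (1.38). Of 11 amacrine and horizontal cell genes, 7 lay below -1 and none above 1 (median -1.12), with summed levels of 202 and 490 RPM. The lowest was *ptf1a*, which selects the amacrine and horizontal fates, with 11 and 152 reads (-4.02). Above 0 were 3 of the 11, the highest *tfap2a* (6781 and 2794, 0.98) and *calb2a* (214 and 94, 0.89). At 72hpf the medians of these lists were 0.07 and -0.27, and 0.17 and -0.17 with upper-quartile scaling. The part of these cells in the low *six6b* value was not tested.

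**Figure D3:**
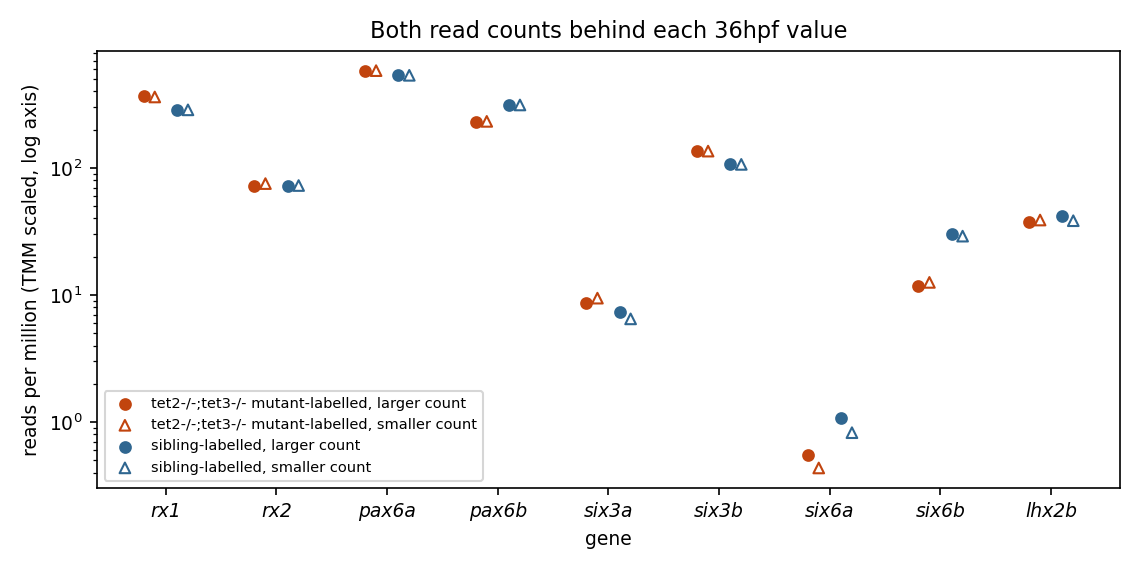
The 2 depth-scaled read counts behind each 36hpf value, in RPM on a log axis, for mutant-labelled (left of each gene) and sibling-labelled eyes (right of each gene), with the larger count as a circle and the smaller as a triangle. The counts of the genotypes overlap for *rx2* and *lhx2b* and are apart for the other 7 genes. The share of all genes with counts apart was not worked out, so separation is no mark of these genes. Reads are not scaled to gene length, so heights of different genes cannot be compared.

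At each stage *pax6a* lay above 0 and *pax6b* below. Pax6 has a paired domain and a homeodomain, is needed for eye formation in mice and humans, and stays on in RPCs, ganglion and amacrine cells and the lens epithelium. *pax6a* (chromosome 25, locus 14932640 to 14953381) had 40120 and 22787 reads in mutant-labelled eyes and 27855 and 19493 in sibling-labelled eyes at 36hpf. In RPM these were 583 and 583 in mutant-labelled eyes and 540 and 535 in sibling-labelled eyes, which did not overlap. The log2 fold-change was 0.12 (interval 0.10 to 0.13). At 72hpf its FPKM was 228 in mutant-labelled and 200 in sibling-labelled eyes (0.19).

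*pax6b* (chromosome 7, locus 15619409 to 15648344) was lower in mutant-labelled eyes at both stages. Its counts of 15914 and 9087 reads in mutant-labelled and 16025 and 11388 in sibling-labelled eyes came to 231 and 232 RPM against 310 and 313. The log2 fold-change was -0.43 (interval -0.45 to -0.40). At 72hpf its FPKM was 121 in mutant-labelled and 154 in sibling-labelled eyes (-0.35).

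Within a library the copies of a pair share depth and scaling, so their contrast does not depend on the library scaling. *pax6a* took 71.6% of the reads of the pair in mutant-labelled and 63.3% in sibling-labelled eyes at 36hpf, a log2 contrast of 0.54 with an exact conditional interval of 0.51 to 0.57. At 72hpf it took 65.3% and 56.5% of the summed FPKM of the pair, a log2 contrast of 0.54. Summed over both copies the genotypes differed little, with log2 values of -0.06 at 36hpf and -0.02 at 72hpf. A contrast of this size was common among pairs of mixed depth. Low counts widen contrasts, so pairs of like depth may differ from these. Among 1744 pairs of genes named a and b, with at least 100 reads for each gene over both libraries at 36hpf, 63.6% had a smaller contrast in either direction, and 60.5% of 1063 such pairs at 72hpf (minimum FPKM of 5 in 1 library or both), a comparison added after the values were seen. *pax6a* and *pax6b* are close paralogs, and reads that match both can be split between them.

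Genes of the lens, another site of *pax6* and *six3* expression, had lower values in mutant-labelled eyes at 36hpf, and epidermis genes had higher values. Of 16 lens genes kept, 14 lay below -1 (6.15% of all genes) and none above 1 (8.9%). Their median was -2.06, with a summed level of 1518 RPM in mutant-labelled and 6360 in sibling-labelled eyes. Of 9 epidermis genes, 8 lay above 1, where 8.9% of all genes did (median 1.93), with summed levels of 9533 and 2463 RPM. At 72hpf the medians were -0.74 for the lens and 0.57 for the epidermis. No listed lens or epidermis gene was at 0 at either stage. The lens transcription factor genes *foxe3* (620 and 711 reads, -0.49) and *pitx3* (3492 and 4744 reads, -0.74) were the highest of the lens list at 36hpf. The part of lens and epidermis in the Pax6 and Six3 values was not tested.

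Both Six3 copies had higher counts in mutant-labelled eyes at 36hpf. In mice, Six3 represses Wnt genes in the forebrain so that the eyes and anterior brain can form. *six3b* (chromosome 12, locus 25509324 to 25511981) had 9374 and 5300 reads in mutant-labelled eyes and 5576 and 3880 in sibling-labelled eyes, or 136 and 136 RPM against 108 and 107. The log2 fold-change was 0.34 (interval 0.30 to 0.38). *six3a* (chromosome 13) had 595 and 369 reads in mutant-labelled eyes and 378 and 236 in sibling-labelled eyes, or 8.65 and 9.44 RPM against 7.32 and 6.48, with a log2 value of 0.36 (0.21 to 0.50). The larger counts alone put *six3a* at 0.24, and the smaller counts alone put it at 0.54, above that interval. For both copies the counts of the genotypes did not overlap.

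At 72hpf the Six3 copies lay on opposite sides of 0. *six3a* had an FPKM of 73.6 in mutant-labelled and 64.3 in sibling-labelled eyes (0.19), and *six3b* had 79.8 and 90.5 (-0.18). The contrast of *six3a* over *six3b* was 0.02 at 36hpf (interval -0.14 to 0.17) and 0.37 at 72hpf, and the sum of both copies at 72hpf was level (-0.01). *six3a* shares its locus entry (10031758 to 10214405) with 4 other genes, among them *six2a* and an RNA named *Six3os1_5*, which was at 0 reads in both libraries at 36hpf and at an FPKM of 1.14 in mutant-labelled and 0.854 in sibling-labelled eyes at 72hpf. No source used here says whether the counting used strand, so reads of overlapping genes may not be separated.

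*lhx2b* separated the genotypes least after *rx2* at 36hpf. Its LIM homeodomain protein is needed in the optic vesicle, and in zebrafish the gene is mutated in *belladonna*, in which optic axons fail to cross the midline. *lhx2b* (chromosome 8, locus 3026370 to 3042643) had 2573 and 1520 reads in mutant-labelled and 2148 and 1398 in sibling-labelled eyes at 36hpf. In RPM the counts were 37.4 and 38.9 in mutant-labelled eyes and 41.6 and 38.4 in sibling-labelled eyes, and they overlapped. The log2 fold-change was -0.09, and although its interval for counting error (-0.15 to -0.02) lay below 0, the difference was within the spread between the counts. At 72hpf its FPKM was 12.5 in mutant-labelled and 15.4 in sibling-labelled eyes (-0.28).

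The spread between the 2 counts sets how far these values can be read. Over the 11833 genes with at least 1000 reads, the depth-scaled counts of 1 genotype differed by a median of 0.04 on the log2 scale in mutant-labelled and in sibling-labelled eyes, and by less than 0.16 and 0.18 for 95% of them. For the 9 genes without *six6a* the largest difference between the counts was 0.13 in mutant-labelled and 0.18 in sibling-labelled eyes. The counts were told apart by size within each gene and not by origin, so the spread may be understated. The labels name no replicates behind the counts, so this spread may be technical, and differences between embryos of 1 genotype were not measured. Overlap of the counts between genotypes was looked up for the 9 genes only, so it has no share of all genes beside it.

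**Figure D4:**
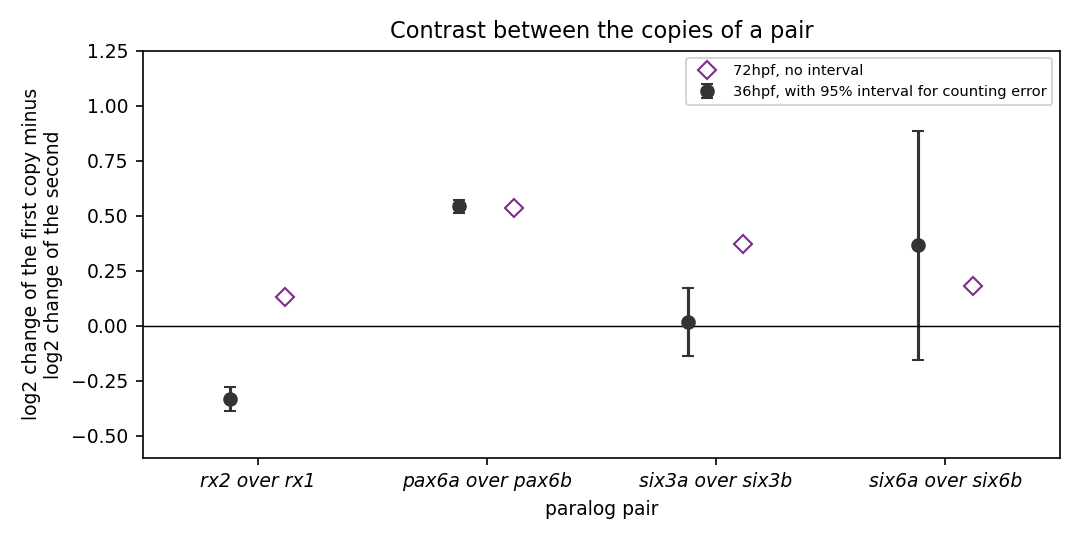
Difference between the log2 changes of the copies of each pair (y axis; above 0, the first copy is relatively higher in mutant-labelled eyes), at 36hpf (filled circles with the exact 95% interval for counting error) and at 72hpf (open diamonds, no interval). *pax6a* over *pax6b* is at 0.54 at both stages, and *rx2* over *rx1* is at -0.33 and 0.13.

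By level, Pax6 genes led the group and *six6a* was last. In mutant-labelled eyes at 72hpf the order by FPKM was *pax6a* (228), *pax6b* (121), *six3b* (79.8), *six6b* (77.9), *six3a* (73.6), *rx1* (44.5), *rx2* (23.3), *lhx2b* (12.5) and *six6a* (6.48). In sibling-labelled eyes the order was the same, except that *rx1*, at 81.7, stood before *six3a* and next to *six6b*, at 82.4. With 1 library per genotype, no spread is known for these levels, and neighbours as close as *six3b* and *six6b* cannot be ranked. *rx1* was at 1.91 times the level of *rx2* in mutant-labelled and 2.08 times in sibling-labelled eyes. Among all genes kept, *pax6a* was at rank 282 in mutant-labelled and 326 in sibling-labelled eyes, and *rx1* at rank 1455 and 784.

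The *six3* and *six6* copies had unequal reads at 36hpf. *six3a* took 6.16% of the reads of its pair in mutant-labelled and 6.10% in sibling-labelled eyes at 36hpf, but 48.0% and 41.6% of the summed FPKM at 72hpf. *six6a* took 4.07% and 3.18% of the reads of its pair, and 7.68% and 6.77% of the FPKM. Reads at 36hpf are not scaled to gene length and the stages were counted with different tools, so these shares stand side by side without a comparison. Whether the counting at 36hpf missed reads of *six3a*, *six6a* or *six6b* was not tested.

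Other genes of the early eye lay on both sides of 0 at both stages. Of 24 further eye field and optic vesicle genes, 20 were kept at each stage. At 36hpf 2 lay above 1 and 1 below -1 (median 0.18), where 15.1% of all genes were past 1 or -1. At 72hpf 3 lay above 1, where 3.65% of all genes did, and none below -1 (median 0.27). *meis1a*, a homeobox partner of Hox proteins, had 1655 reads in mutant-labelled and 361 in sibling-labelled eyes at 36hpf (1.90) and an FPKM of 5.86 and 1.21 at 72hpf (1.63). *lhx9*, a relative of *lhx2b*, had 7780 and 2251 reads (1.49). *six7*, a fish relative of *six3* with a role in cone photoreceptors, had 312 and 524 reads (-1.04), and *otx2*, needed in photoreceptors and pigment epithelium, had 9795 and 15773 (-0.98) at 36hpf but an FPKM of 164 and 104 at 72hpf (0.65). At 72hpf *sox3*, a gene of neural progenitors, had an FPKM of 49.7 and 24.0 (1.02), and *tbx2a*, a dorsal eye patterning gene, had 43.2 and 70.1 (-0.69).

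Relatives of the Six3 and Six6 genes and their Eya, Dach and Pax partners had 14 of 19 values above 0 at 36hpf and 14 of 17 at 72hpf, where 51% and 51.9% of all genes were. Eya proteins are co-activators and Dach proteins co-repressors that act with proteins of this family, above all in sensory placodes, muscle and kidney. At 36hpf 4 of the 19 lay above 1 (8.9% of all genes) and none below -1, with a median of 0.37. At 72hpf 4 of the 17 lay above 1 (3.65% of all genes) and none below -1, with a median of 0.57. The highest at 36hpf with at least 100 reads were *six4b* (107 and 21 reads, 2.03, interval 1.37 to 2.80) and *pax8*, a gene of kidney and ear (3508 and 915 reads, 1.64), and at 72hpf, among genes with a minimum FPKM of 5 in 1 library or both, *six1a* (FPKM 5.84 and 1.42) and *six5* (5.62 and 2.04, 1.12). Below that limit at 72hpf, *pax8* had an FPKM of 4.68 and 0.578 (1.85). Also below it, *dachb* had 2.24 and 4.01 (-0.63), the lowest value of the list at that stage. The lowest within the same limits were, at 36hpf, *pax2a*, a gene of the optic stalk (4179 and 5534 reads, -0.70), and *dachb* (1362 and 1419 reads, -0.35), and at 72hpf *dachd* (FPKM 12.5 and 17.1, -0.42). No test compared these lists with the 9 genes.

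Cell cycle genes were higher in mutant-labelled eyes at 72hpf while most of the 9 eye field factors were not. Which cells of the pooled whole eyes expressed them was not tested. Of 16 cell cycle and CMZ genes kept, all 16 were above 0 at 72hpf, where 51.9% of all genes were, but none reached 1 (median 0.72), and their summed FPKM was 1322 in mutant-labelled and 802 in sibling-labelled eyes. The helicase subunit gene *mcm7* had an FPKM of 148 and 74.8 (0.97), and *rrm1*, a ribonucleotide reductase gene, had 114 and 61.3 (0.89). The CMZ genes *fabp11a* (142 and 125, 0.18) and *col15a1b* (19.5 and 18.5, 0.07) were the lowest of the list. At 36hpf 5 of 16 genes of this list were above 0 (median -0.06). Of the 9 eye field factors 3 were above 0 at 72hpf, *pax6a*, *six3a* and *six6a*, all by less than 0.2.

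**Figure D5:**
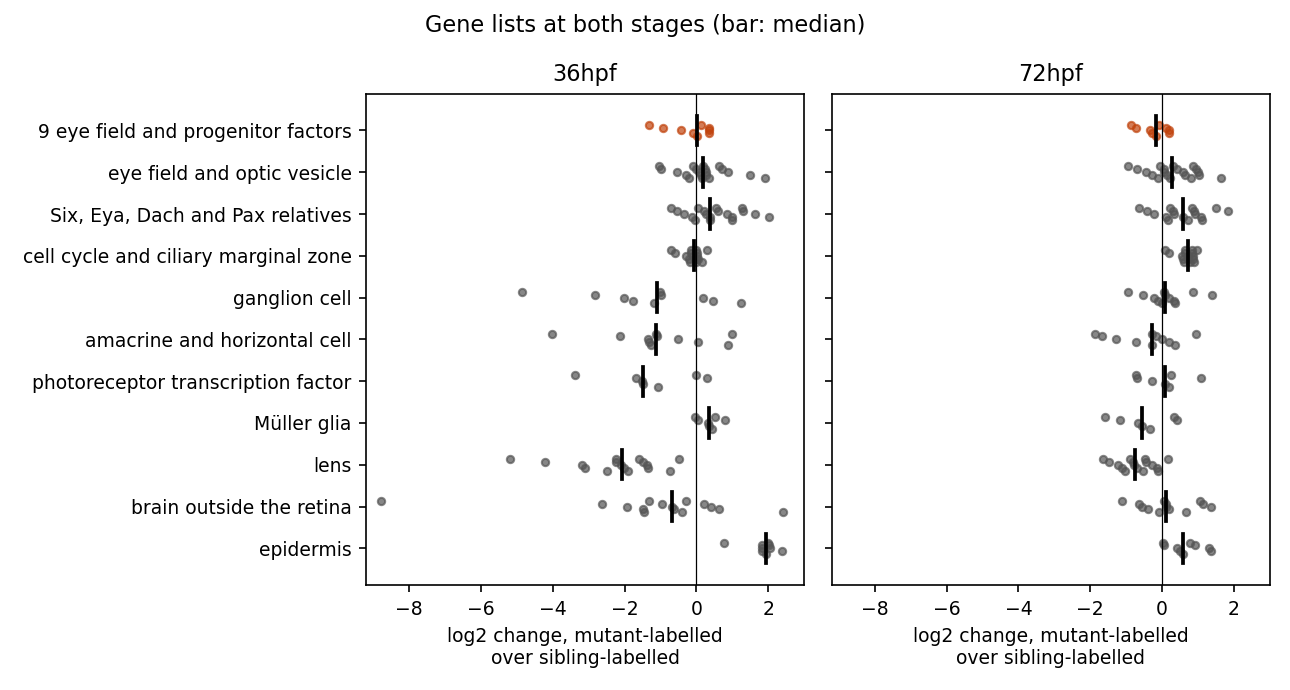
Log2 change of each gene kept (x axis, points) and the median (bar) for the 9 eye field and progenitor factors and 10 further lists at 36hpf (left) and 72hpf (right), mutant-labelled over sibling-labelled eyes. The 9 genes centre near 0 (medians 0.02 and -0.18), lens genes lie lowest (-2.06 and -0.74), and cell cycle and CMZ genes lie above 0 at 72hpf (0.72). *hoxb3a*, the point farthest to the left, had 0 reads in mutant-labelled eyes, so its place depends on the 0.5 reads added.

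The genes whose pair of log2 changes lay nearest to each factor were found among 7323 genes with at least 1000 reads over both libraries at 36hpf and an FPKM of at least 5 in both libraries at 72hpf, by distance over both stages. For *six6b*, low at 36hpf alone, they were *lim2.3*, a lens membrane protein gene (-1.34 and -0.12), and *CBFA2T3* (-1.32 and -0.02), and 15 genes lay within 0.2. For *six6a* they were *klf7b* and *zswim5*, with 22 genes within 0.2. For *rx1* they were *pcdh7b*, a protocadherin gene, and *bbs7*, a gene of cilium transport, with 50 genes within 0.2, and for *rx2* *DNAJC11 (2 of 2)* and *napaa*, with 151. For *pax6b* they were *rabif* and *slc30a1a* (281 genes within 0.2), for *six3b* *nolc1* and *USP31* (312), and for *six3a* *dacha*, a Dach gene, and *glud1a* (403). *lhx2b* was nearest to *ube2z* and *qdpra* (817) and *pax6a* to *PQLC1* and *cdc5l* (910), and these members had the most neighbours of the 9. The distance rests on 2 values per gene.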

How the data were processed

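For 36hpf the authors used CLC Genomics Workbench for mapping (GRCz10) and counting. Their deposited table says FPKM but holds, per gene and genotype, an expected count (the mean of 2 whole read counts) and a log2 value (the mean of their log2), from which both counts were solved, and a signed ratio kept as a score and not used. For 72hpf the authors used TopHat and Cufflinks and deposited FPKM. Their list of changed genes, with the authors' fold-changes, was not used. No source used here says whether the 2 counts are runs or libraries. They were summed (no rounding needed), scaled by TMM (edgeR 4.0.16) and compared with 0.5 reads added over genes with at least 20 reads. At 72hpf genes needed an FPKM of 1 in either library, and 489 symbols on several rows were left out of lists. Intervals cover counting error only. The steps were tested on simulated data. For the 36hpf scaling the simulation had far fewer changed genes than the real data, with rises and falls balanced. It therefore does not cover changes as wide as those measured. Members and lists were chosen with earlier results of these data known. Named are the members, *tet2*, *tet3*, up to 4 extreme genes per list and stage (at least 100 reads or an FPKM of 5), of which those beside a member's result are printed, and the 2 nearest genes per member. *rx3* at 36hpf, *pax8*, *dachb* and *otx2* at 72hpf, *six2a* and *Six3os1_5* were named after their values were seen. The brain list (median -0.67 at 36hpf and 0.10 at 72hpf, or -0.49 at 72hpf with a minimum FPKM of 5) is not described further. At 36hpf the Müller glia median was 0.35 and the photoreceptor factor median -1.49. Alternatives were another scaling, another value added, other minimums and each count alone. No sequence was printed.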

Additional observations from a re-analysis of the deposited data

Results flagged for a closer look

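For 4 of the 9 genes the mutant-labelled library lay on opposite sides of the sibling-labelled library at the 2 stages, with 1 library per genotype and stage, and the difference between the stages was not tested. The share of all genes on opposite sides was not worked out, so this count is no mark of the 9 genes. *rx1* had a log2 change of 0.35 at 36hpf and -0.86 at 72hpf, and *six3b* had 0.34 and -0.18. *rx2* had 0.0169 and -0.73, with a 36hpf interval that spans 0, and *six6a* had -0.93 and 0.10, with 55 and 86 reads behind the 36hpf value. The stages differ in sequencing, mapping, counting and unit, which cannot be told apart from the stage itself.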

How the results depend on the processing

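No value of the 9 genes that was past 1 in size changed direction under any alternative, and *six6b* stayed between -1.37 and -1.21 at 36hpf. Of 63 alternative values at 36hpf 2 changed sign (*lhx2b* at 0.02 with the smaller counts alone, *rx2* at -0.00215 with the larger), and of 45 at 72hpf 1 did (*six6b* at 0.02 with upper-quartile scaling). That scaling put the median of the 9 genes at 72hpf at -0.0754, and the smaller counts put *six3a* over *six3b* at 0.19 at 36hpf. The number of members past 1 or -1 was the same under every alternative run. Of the medians of the other lists 7 of 70 alternative values at 36hpf and 9 of 50 at 72hpf moved by over 0.1, and that of the brain list at 72hpf changed sign (0.10, and -0.49 with a minimum FPKM of 5). Counts over all genes moved more. At 36hpf, 1948 genes reached 1, 1346 reached -1, 387 reached 2 and 307 reached -2. With no minimum these were 3469, 2611, 1013 and 823, and with 100 reads 781 reached -1, 235 reached 2 and 179 reached -2. At 72hpf, 632 reached 1, 44 reached 2 and 307 reached -2, and with 0.1 FPKM added 1198, 181 and 646. No paired analysis was possible because each group holds 1 sample. The low read count limits *six6a* at 36hpf.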

Other observations

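Several single genes of the early eye had few reads at 36hpf and a high FPKM at 72hpf. *sox2*, a gene of neural progenitors, had 20 reads in mutant-labelled and 19 in sibling-labelled eyes at 36hpf and an FPKM of 57.5 and 52.4 at 72hpf. *sox3* had 38 and 33 reads and an FPKM of 49.7 and 24.0, and *mab21l1*, a gene of the optic cup and lens, had 111 and 77 reads and an FPKM of 177 and 142. These genes were picked after their values were seen, and the stages cannot be compared in level. Whether the counting at 36hpf missed reads of these genes was not tested, so few reads need not mean low expression.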
